A study of Mus musculus with 14 samples.

Results

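Integrins and the proteins that bind their cytoplasmic tails were followed across tumorspheres of 5 related mouse ovarian tumour cell lines. The 42 genes were taken by symbol from the 35275 genes of the deposited expression table, and all 42 were in it. They comprised 12 integrin alpha subunits, 7 integrin beta subunits and 23 adaptor, scaffold and actin-linking proteins of focal adhesions. The rule used names and no measured value, but the set was chosen with earlier results of these data known.

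RNA was sequenced from KMF cells, an aggressive derivative of the mouse ID8 ovarian epithelial line from C57Bl6 mice (n = 3), and from KT13, a single KMF clone in which CRISPR/Cas9 disrupted Ptk2, the gene of focal adhesion kinase (FAK KO, n = 3). The other lines were made from KT13 and so share its Ptk2 lesions: FAK-WT cells carried lentiviral GFP-FAK (n = 3), FAK-R454 cells carried GFP-FAK without kinase activity (n = 2), and β-catenin ΔGSK cells carried a retroviral β-catenin that lacks its GSK3 phosphorylation sites (n = 3) and had no FAK added back. All were grown for 5 days as anchorage-independent spheres in serum-free medium on plates coated to prevent attachment. The methods of the study describe independent RNA samples of ID8 or KMF cells, taken at various passages. The labels do not say whether the KMF samples here are among those. For KT13 and the lines made from it, the methods speak of replicate RNA samples and do not say that they came from separate cultures, so p-values measure the spread between these samples, which may be technical. A difference from the parental cells cannot be told apart from a property of 1 clone, of drug selection or of cell sorting. The lines made from KT13 were also transduced, drug-selected and sorted, and no KT13 line with an empty vector was among the samples. Their differences from FAK KO therefore cannot be told apart from effects of those steps.

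Integrins are heterodimers of an alpha and a beta subunit, and the pair decides which matrix protein a cell grips: laminins, collagens, or fibronectin and vitronectin through the short RGD sequence. On the inner face, talins and kindlins bind the beta tail and switch the receptor on, and vinculin, α-actinins, filamin and tensins tie it to actin. FAK is recruited to these clusters and is activated there, which is why the study's lines, which differ in FAK, bear on them. The spheres were not attached to a surface, so the values below describe mRNA in suspended cells or aggregates and not in spread cells. The study reports that the cells needed FAK activity, or added β-catenin ΔGSK, to cluster. The lines may thus differ in clustering, whose bearing on these genes was not tested, and spheres below names the culture.

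Libraries held 25390558 to 35289859 gene-assigned fragments, replicates of a line correlated with Pearson's r of 0.988 to 0.996 across genes, and no pair of libraries was identical. Ptk2 mRNA was 19.0 ± 1.45 FPKM (fragments per kilobase of gene, scaled to library depth) in FAK KO, 43.4 ± 1.76 in FAK-WT and 62.4 ± 4.42 in FAK-R454 spheres (SD, n = 3, 3 and 2); the edited alleles still give transcripts, so this checks the re-expression but not the knockout. Of 12 markers of ovarian surface epithelium and mesothelium, 8 exceeded 1 FPKM (among them Krt8, Krt18, Krt19, Wt1, Msln and Vim) and Krt7, Epcam, Cdh1 and Muc16 did not. Defining markers of leukocytes (Ptprc, Cd3e), endothelium (Cdh5, Kdr) and platelets (Gp9) were at or near 0. Of the endothelial list Pecam1 was expressed, and the sum of its 4 genes was 1.15 to 1.31 FPKM in FAK-WT, 0.831 to 1.29 in FAK KO and 0.356 to 0.640 in β-catenin ΔGSK libraries. The summed level of the 3 platelet markers nevertheless ranged from 10.9 to 13.2 FPKM in FAK-WT, 5.13 to 5.71 in FAK KO and 2.79 to 4.09 in β-catenin ΔGSK libraries, carried by Itga2b and Pf4, and the macrophage marker Cd68 ranged from 6.6 to 12.3, 2.79 to 3.15 and 1.05 to 1.86 FPKM in the same lines.

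The 42 genes covered a wide range of levels. Averaged over the lines, 6 genes were above 100 FPKM, 19 lay between 10 and 100, 5 between 1 and 10, and 12 at or below 1. The 6 most abundant were Actn4, Itga6, Itgb5, Itgb1, Flna and Itga3. The laminin receptor chains α6 and α3 and the beta chains β1 and β5 thus stood at the level of the actin crosslinkers. Tests between lines could include 30 genes, 11 integrins and 19 adaptors, whose mean exceeded 1 FPKM in at least 1 line. In a limma F test over the 5 lines, 28 of the 30 passed at an adjusted p under 0.05, where 83.9% of all 12256 tested genes did, so variation between the lines was general in these data. In bulk RNA, fewer cells that express a gene and less RNA per cell cannot be told apart. The line with the highest mean exceeded the lowest by less than 1.5 times in 16 of the 30 and by more than 2 times in 10 (33.3%, against 24.0% of all tested genes). Those 10 were Itga7, Tns1, Itga10, Lims2, Itgb8, Itgb4, Itga5, Tln2, Itgb5 and Actn1.

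The most abundant member of each role gave the frame for the comparisons that follow. Actn4 was 273, 269 and 249.6 FPKM in KMF, 227, 251 and 238 in FAK KO, 268, 267 and 283 in FAK-WT, 286 and 277 in FAK-R454 and 194, 205 and 212 in β-catenin ΔGSK libraries, and was lowest in the last. Itga6 was 221, 231 and 211 in KMF and 248, 214 and 206 in β-catenin ΔGSK libraries, which overlapped each other, and lower in the FAK-R454 libraries given below. Itgb5 was 216, 209 and 223 in KMF, above the 151, 163 and 196 of FAK-WT and the 173 and 163 of FAK-R454 libraries. Tln1, the main activator of integrin tails, stayed between 32.5 and 42.2 in the 14 libraries.

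Parva, which joins ILK to actin, was 29.3, 30.6 and 32.0 FPKM in KMF, 21.7, 21.4 and 20.8 in FAK KO, 25.8, 26.6 and 24.3 in FAK-WT, 23.2 and 23.4 in FAK-R454 and 22.7, 21.8 and 22.3 in β-catenin ΔGSK libraries. KMF was highest and FAK KO lowest, apart from one another. Zyx was 60.8, 58.9 and 48.6 in KMF and 43.5, 53.7 and 57.7 in β-catenin ΔGSK libraries, with wide spread in both. Git1, a scaffold that binds paxillin and FAK, was 48.4, 50.4 and 41.4 in KMF, 48.2, 54.0 and 52.0 in FAK KO, 54.9, 56.6 and 55.4 in FAK-WT, 59.9 and 60.8 in FAK-R454 and 52.8, 58.4 and 64.0 in β-catenin ΔGSK libraries, and its line means differed by less than 1.5 times.

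**Figure D1:**
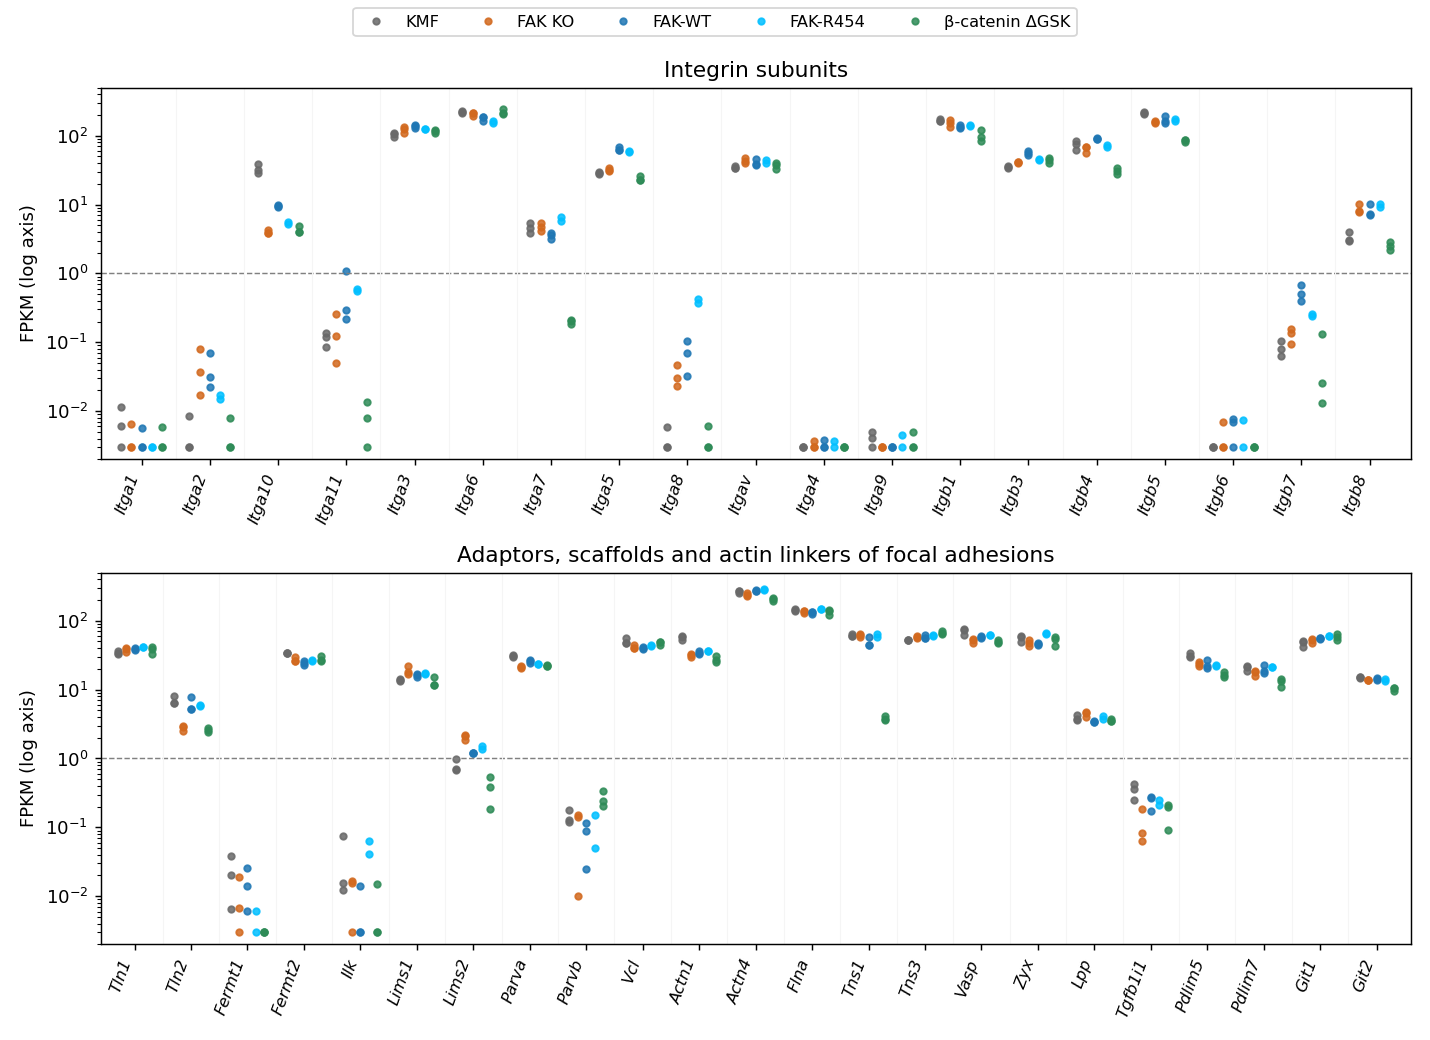
FPKM on a log axis for the 19 integrin subunits (top) and 23 adaptors (bottom), 1 point per library, coloured by line; values under 0.003 are drawn at 0.003 and the dashed line marks 1 FPKM. Itga6 lies between 151 and 248 in every library, Itga10 is highest in KMF, and Itga7 and Tns1 are lowest in β-catenin ΔGSK spheres.

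The 12 genes that never reached a mean of 1 FPKM in a line were not tested, except in the alternative with no filter. They were Itga4, Itga9, the collagen-binding Itga1, Itga2 and Itga11, and the RGD-binding Itga8. The others were the beta subunits Itgb6 and Itgb7, kindlin-1 (Fermt1), Ilk, Parvb and Tgfb1i1. Itga4, Itga9, Itga1 and Itgb6 had line means of at most 0.00583 FPKM. A library of this depth with no fragment allows up to 3 fragments, which for a gene of 1 kb is 0.0850 to 0.118 FPKM. Itga8 gave 0.366 and 0.429 FPKM (59 to 79 fragments) in the FAK-R454 libraries and at most 0.103 FPKM in the other 12. Itgb7, the partner of α4 in lymphocyte homing, was 0.521 ± 0.139 FPKM in FAK-WT and 0.129 ± 0.0327 in FAK KO spheres (SD, n = 3 each). Itga11 was 0.558 and 0.585 FPKM (77 to 92 fragments) in the FAK-R454 libraries, 0.216, 0.292 and 1.09 in those of FAK-WT, where replicate 3 stood apart, and at most 0.261 in the other 9.

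Ilk, the integrin-linked kinase that bridges beta tails to the PINCH and parvin proteins and that most cells use, was listed at 0 to 0.0755 FPKM, or 0 to 5 fragments. In the GENCODE M21 annotation of GRCm38, 89.7% of its 2744 exon bases are shared with genes of the opposite strand, 2106 of them with Taf10 and 355 with Rrp8. Those genes had means of 18.3 to 21.7 and 9.60 to 11.5 FPKM in the lines. The kit described does not mark strand and the treatment of ambiguous fragments is not given in the sources used here, so the Ilk value is uncertain and is not read as its level. Among the other members, Vcl was the only one with at least 25% of its exon bases shared with another gene of the table, 25.5% with Ap3m1 on the opposite strand (4.75 to 7.20 FPKM against 40.0 to 50.3 for Vcl).

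The summed level of the alpha chains varied less between the lines than that of the beta chains. The FPKM of the 12 alpha genes summed to 415 ± 3.92 in FAK KO, 404 ± 20.9 in β-catenin ΔGSK, 426 ± 10.4 in KMF, 435 ± 13.2 in FAK-WT and 395 ± 8.86 in FAK-R454 spheres (SD, n = 3, or 2 for FAK-R454). The sum of the 7 beta genes was 425 ± 10.3 in FAK KO and 263 ± 23.1 in β-catenin ΔGSK spheres, with single libraries of 415 to 436 and 238 to 283, so the groups did not overlap. It was 497 ± 4.88 in KMF, 462 ± 34.6 in FAK-WT and 436 ± 4.72 in FAK-R454 spheres. The ratio of alpha to beta FPKM was accordingly 1.503 to 1.62 in the β-catenin ΔGSK libraries and 0.826 to 1.02 in the other 11. With 3 libraries a line an exact permutation test cannot go below p = 0.1, and these sums were not tested.

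The make-up of the alpha pool in FAK-WT and FAK-R454 spheres differed from that in the other lines, parental KMF included. Itga6 gave 49.8 ± 2.72% of alpha FPKM in FAK KO, 51.8 ± 1.05% in KMF and 55.0 ± 2.77% in β-catenin ΔGSK spheres, and 41.2 ± 1.88% in FAK-WT and 39.4 ± 0.861% in FAK-R454 spheres. Itga5 gave 14.7 ± 1.46% in FAK-WT and 14.9 ± 0.866% in FAK-R454, and 5.87 ± 0.605% to 7.72 ± 0.410% in the lines without re-expressed FAK. Itga10 made up 7.76 ± 1.43% of the pool in KMF and 0.949 ± 0.0466% in FAK KO spheres.

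**Figure D2:**
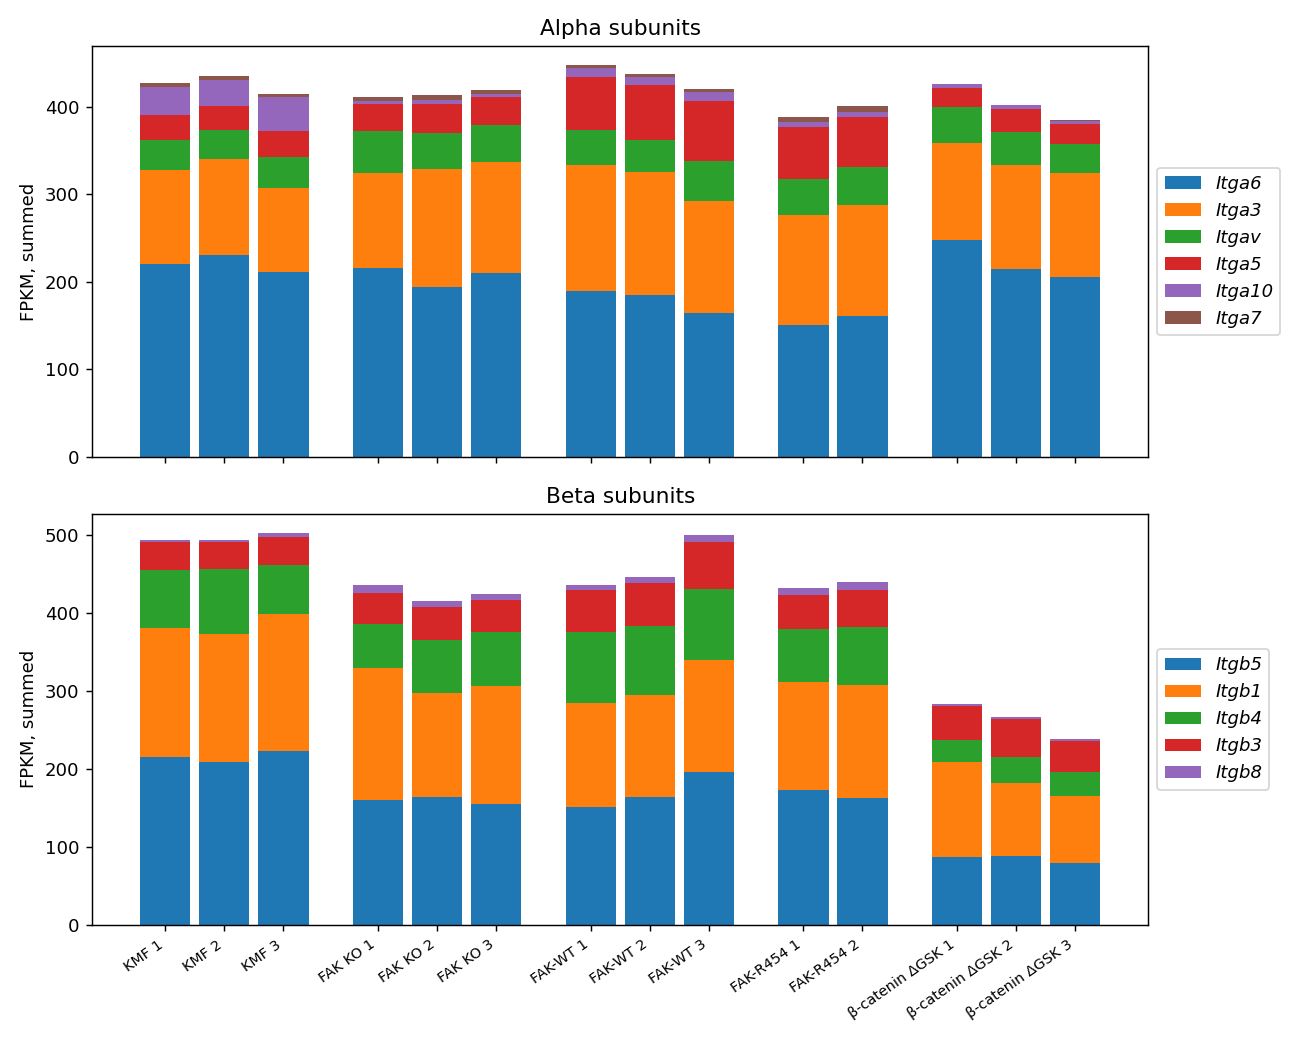
FPKM of the expressed alpha subunits (top) and beta subunits (bottom) stacked for each of the 14 libraries, from 0. The alpha stacks are of similar height throughout, and the 3 β-catenin ΔGSK beta stacks (238 to 283 FPKM over all beta genes) are the lowest.

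For each pair of lines, limma compared log2(FPKM + 0.1), a scale that understates changes of low genes, over all genes with a mean above 1 FPKM in either line; a gene passed at a Benjamini-Hochberg adjusted p under 0.05 over all of them. In FAK-WT spheres 7 of the 30 tested genes were higher than in FAK KO and 4 were lower, while 19 did not pass. Over all genes 15.6% were higher and 25.2% lower, so the share of members passing in either direction (36.7%) was near that of all genes (40.8%). Itga10 and Tln2 were higher by a log2 of at least 1 (background 2.91%) and no member was lower by that much (background 1.71%). The median log2 change of the 30 was 0.01, and that of all genes -0.08.

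Itga10 (ENSMUSG00000090210, chromosome 3, 96645584 to 96664519), the alpha chain of the collagen receptor α10β1, had the largest rise in FAK-WT over FAK KO and was also the member that differed most between the parental cells and the knockout clone. Its FPKM was 31.4, 28.7 and 38.8 in KMF, 3.80, 3.80 and 4.20 in FAK KO, 9.82, 9.34 and 9.50 in FAK-WT, 5.18 and 5.52 in FAK-R454, and 4.02, 4.92 and 4.01 in β-catenin ΔGSK libraries. Only FAK KO and β-catenin ΔGSK overlapped. FAK-WT exceeded FAK KO by a log2 of 1.26 (standard error 0.08, adjusted p = 3.05e-05, limma) and FAK-R454 exceeded it by 0.43 (standard error 0.10, adjusted p = 0.018). FAK-WT stood above FAK-R454 by 0.83 (adjusted p = 0.00357), and below KMF by a log2 change of -1.76 (adjusted p = 4.72e-05), so the FAK-WT level lay between those of the clone and its parent. Without FAK-R454 replicate 1 or 2, a single FAK-R454 sample was assumed to vary like the other line, and the adjusted p reached 0.173 against FAK KO and 0.0941 against FAK-WT.

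Itga5 (ENSMUSG00000000555), the alpha chain of the fibronectin receptor α5β1, was high in both lines with re-expressed GFP-FAK, active or kinase-inactive. FPKM was 30.5, 33.8 and 31.7 in FAK KO, 60.9, 62.1 and 69.0 in FAK-WT, 60.1 and 57.2 in FAK-R454, 28.7, 27.5 and 29.3 in KMF and 22.4, 26.0 and 22.7 in β-catenin ΔGSK libraries. The FAK-WT and FAK-R454 libraries lay above all those of the other lines, parental KMF included. The log2 change from FAK KO was 1.00 in FAK-WT (standard error 0.07, adjusted p = 6.22e-05, limma) and 0.87 in FAK-R454 (standard error 0.07, adjusted p = 1.95e-04). FAK-WT and FAK-R454 differed by 0.12 (standard error 0.07, adjusted p = 0.297). Itga5 lies on chromosome 15 (103344289 to 103366763). The median level of that chromosome's tested genes, relative to the median of all tested genes, was higher than in FAK KO. This log2 shift was 0.38 in FAK-WT and 0.19 in FAK-R454 spheres. After that shift was taken out, the changes of Itga5 from FAK KO were 0.62 (adjusted p = 7.27e-04) and 0.69 (adjusted p = 4.74e-04).

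Tln2 (ENSMUSG00000052698, chromosome 9, 67217087 to 67559703), the less abundant of the talins, was higher than in FAK KO spheres in FAK-WT, FAK-R454 and KMF. It had 2.98, 2.90 and 2.47 FPKM in FAK KO and 2.60, 2.40 and 2.80 in β-catenin ΔGSK libraries, against 5.16, 5.30 and 7.94 in FAK-WT, 5.86 and 6.06 in FAK-R454, and 6.29, 6.38 and 8.07 in KMF. The FAK KO and β-catenin ΔGSK lines were the low ones, and they overlapped. The log2 change from FAK KO was 1.09 for FAK-WT, 1.08 for FAK-R454 and 1.28 for KMF (standard errors 0.17, 0.11 and 0.12, adjusted p = 0.00195, 7.06e-04 and 6.33e-05, limma). FAK-WT replicate 3 was the highest of its line, and without it the FAK-WT change was 0.89 and still passed. Tln1, the talin with the higher level, had means of 34.4 to 41.7 FPKM and passed in none of the 6 comparisons, and kindlin-2 (Fermt2) was 27.4 ± 2.05 in FAK KO and 24.1 ± 1.67 in FAK-WT spheres (adjusted p = 0.0985), and passed in KMF over FAK KO (given below).

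**Figure D3:**
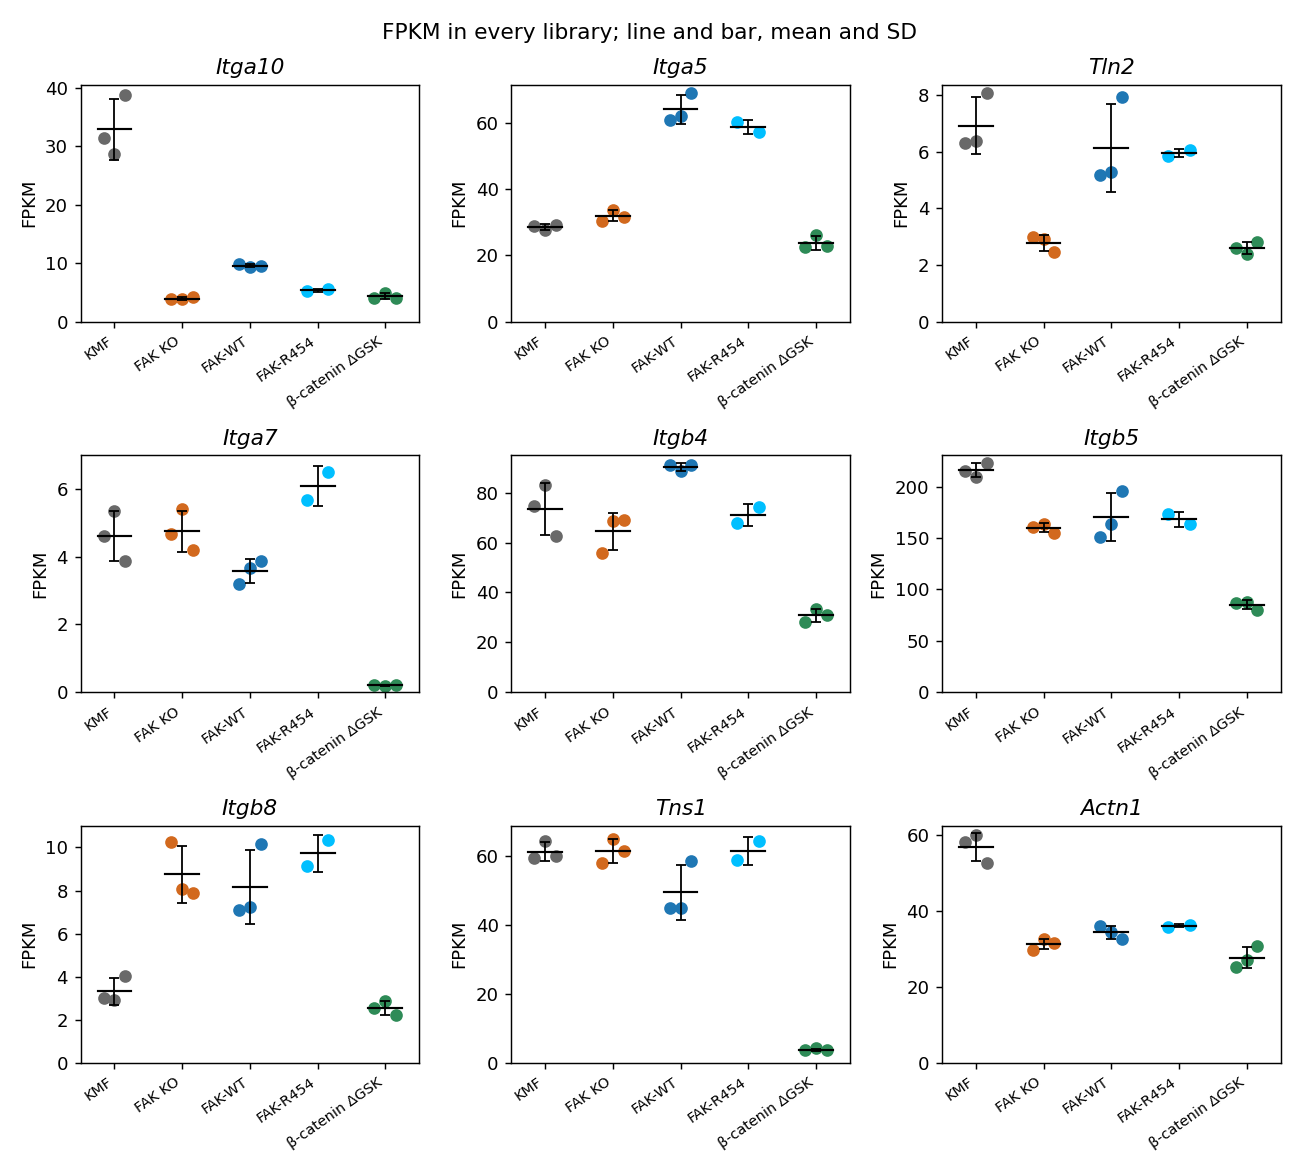
FPKM in every library for 9 members, with the mean (line) and SD (bar) of each cell line, on linear axes from 0. Itga5 and Tln2 are high in both FAK-WT and FAK-R454, Itga10 is highest in KMF, and Itga7, Itgb4, Itgb5 and Tns1 are lowest in β-catenin ΔGSK spheres.

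Of the 5 beta chains tested, FAK-WT spheres exceeded the knockout clone at Itgb4 and Itgb3, and the other three did not pass. Itgb4, which pairs with α6 to bind laminin in hemidesmosomes, was 56.0, 68.8 and 68.9 FPKM in FAK KO and 90.9, 88.6 and 91.3 in FAK-WT libraries, a log2 difference of 0.49 (standard error 0.09, adjusted p = 0.00365, limma). Itgb3, the partner of αv, was 39.8, 41.2 and 41.3 in FAK KO and 53.3, 55.6 and 59.4 in FAK-WT, a difference of 0.46 (standard error 0.06, adjusted p = 0.00119). Neither set of libraries overlapped. In FAK-R454 spheres the same genes differed from FAK KO by 0.14 and 0.16 (adjusted p = 0.33 and 0.102), and FAK-WT exceeded FAK-R454 by 0.35 and 0.30 (adjusted p = 0.0236 and 0.0418). The last pair of calls was lost without any of FAK-WT replicate 1 or 2 or FAK-R454 replicate 1 or 2, with an adjusted p up to 0.199 for Itgb4 and 0.273 for Itgb3. Itgb1, the common partner of most alpha chains, was 151 ± 18.1 in FAK KO and 136 ± 6.75 in FAK-WT (adjusted p = 0.228), and Itgb5 was 159.7 ± 4.36 and 170.1 ± 23.1 (adjusted p = 0.503).

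The remaining FAK-WT calls were those of Parva, Actn4, Lims2, Itga7, Lpp and Tns1. Parva, α-parvin, rose by 0.26 and Actn4, α-actinin-4, by 0.19 on the log2 scale, and Lims2, the PINCH-2 adaptor, fell by 0.74, Itga7, a laminin-binding chain of muscle, by 0.39, Lpp, a zyxin relative, by 0.37 and Tns1, tensin-1, by 0.32. Of the 11 calls, those of Itga10, Itga5, Tln2, Itgb3, Itgb4 and Lims2 passed whichever library was left out. Parva and Lpp each lost theirs without FAK KO replicate 3 or FAK-WT replicate 2 (adjusted p up to 0.0624 and 0.066), and Itga7 lost it without FAK KO replicate 1 or 2 or FAK-WT replicate 1 or 2 (up to 0.0975). Actn4 and Tns1 each lost theirs without 5 of the 6 libraries (adjusted p up to 0.141 and 0.136), and Actn4 kept it only without FAK KO replicate 2, Tns1 only without FAK-WT replicate 3. Parva (0.11), Actn4 (0.04) and Tns1 (-0.27) also did not pass after chromosome centring (adjusted p = 0.248, 0.65 and 0.071), nor did Itga7 and Tns1 under median-of-ratios scaling.

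In spheres with kinase-inactive FAK-R454, 7 of the 30 genes were higher than in FAK KO and 1 was lower (26.7% passing), where 9.78% of all genes were higher, 9.89% lower and 19.7% either. Only Tln2 changed by a log2 of at least 1 (background 1.93% higher, 0.812% lower). The median log2 change of the members was 0.13, and that of all genes -0.03. Besides Itga5, Tln2 and Itga10, the higher genes were Zyx, Vasp, Actn4 and Git1. Zyx, zyxin, which gathers at strained actin filaments, was 42.5, 52.7 and 46.9 FPKM in FAK KO, 45.4, 44.3 and 47.5 in FAK-WT and 63.6 and 65.9 in FAK-R454 libraries. The FAK-R454 libraries were above every FAK KO and FAK-WT library. The log2 difference was 0.46 from FAK KO (standard error 0.09, adjusted p = 0.0118, limma), and FAK-WT differed from FAK-R454 by -0.50 (standard error 0.05, adjusted p = 0.00711).

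Vasp, an actin-elongation factor, differed from FAK KO by 0.27, Actn4 by 0.24 and the GIT1 scaffold by 0.23 (adjusted p = 0.0389, 0.0369 and 0.0481, limma). Itga6, the most abundant alpha chain, fell by 0.41 on the log2 scale (adjusted p = 0.00645), from 215, 194 and 210.4 FPKM in FAK KO to 151 and 161 in FAK-R454 libraries. It was 189, 185 and 164 in FAK-WT, and the FAK-WT change of -0.20 did not pass (adjusted p = 0.0623). That change did pass in 1 fit of 5 lines (adjusted p = 0.0491, limma) and without FAK KO replicate 2 (adjusted p = 0.0415). With 2 libraries the FAK-R454 calls were fragile. Only Itga5 and Tln2 passed whichever library was left out. Itga6 lost its call without FAK-R454 replicate 1 (adjusted p = 0.106), Zyx and Itga10 without either FAK-R454 replicate (up to 0.105 and 0.173), and Actn4, Vasp and Git1 without either of these or FAK KO replicate 3 (up to 0.282) and after chromosome centring (adjusted p = 0.0991, 0.123 and 0.119).

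Set directly against each other, FAK-WT and FAK-R454 differed at 5 of 30 genes (16.7%), where 3.38% of all genes were higher in FAK-WT, 4.44% lower and 7.82% either. Itga10, Itgb4 and Itgb3 were higher in FAK-WT, and Zyx and Itga7 lower, none by a log2 of 1 (background 0.696% higher, 0.747% lower). Itga7 was 3.19, 3.67 and 3.88 FPKM in FAK-WT and 5.67 and 6.49 in FAK-R454 libraries, a log2 difference of -0.75 (standard error 0.11, adjusted p = 0.0197, limma). No call held in each fit that left out a library. Without FAK-R454 replicate 1 or 2 no member was higher or lower, and without FAK-WT replicate 3 the counts were 6 higher and 8 lower.

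**Figure D4:**
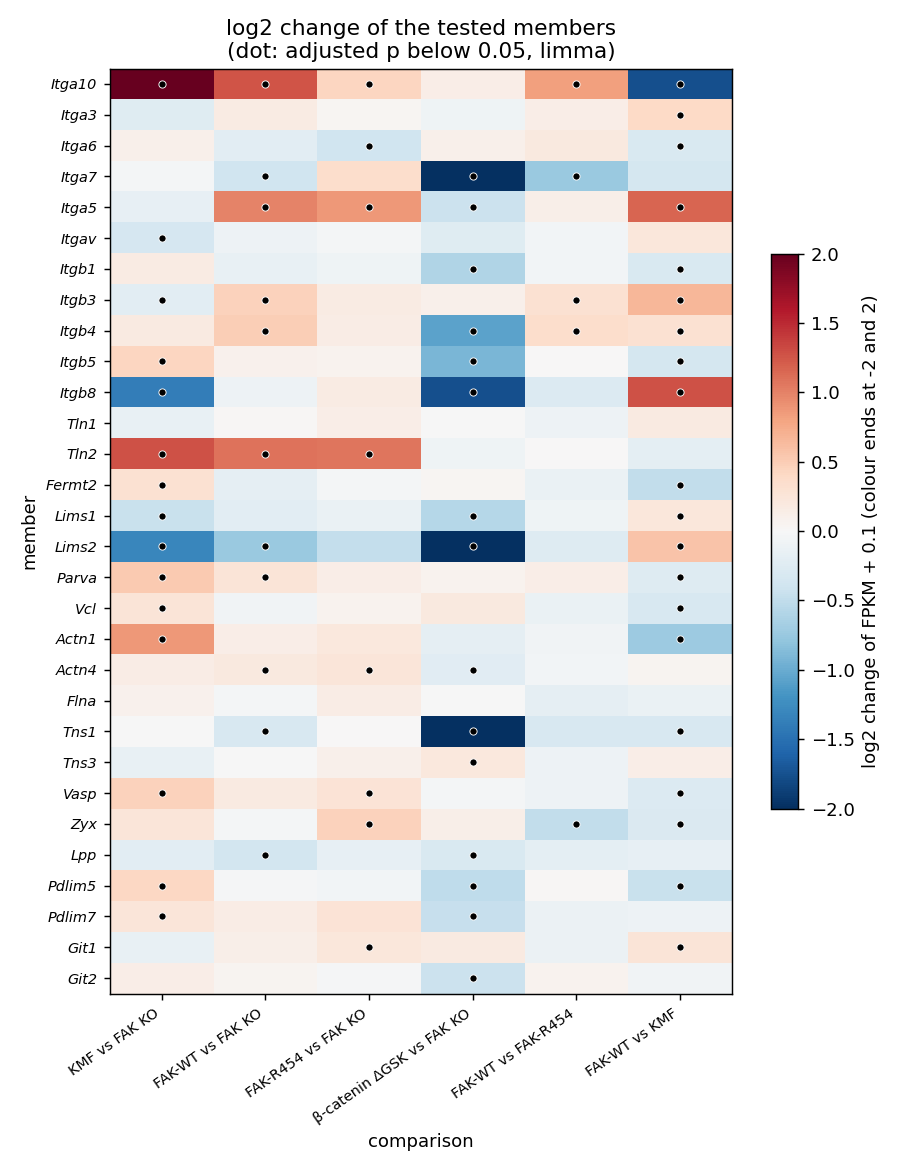
log2 change of FPKM + 0.1 for the 30 tested members (rows, by role) in 6 comparisons (columns), red for higher and blue for lower in the first-named line, with colours ending at -2 and 2; a dot marks an adjusted p under 0.05 (limma). The β-catenin ΔGSK column holds 14 dots on blue and 1 on red, and the first 4 columns share the FAK KO libraries.

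In the FAK-null clone with stabilised β-catenin 14 of the 30 genes were lower and 1 was higher. Over all 11915 genes 34.4% were lower and 23.7% higher, so a change was common in this line: 58.1% of all genes and 50.0% of the members passed. The falls by a log2 of at least 1 numbered 5 (background 6.99% lower). The median of the members was -0.20 and that of all genes -0.09. Median-of-ratios scaling factors, taken over all 14 libraries, differed between the lines by a log2 of -0.11. The scaled fit took its factors from the libraries of this comparison only. The β-catenin ΔGSK line had the lowest mean for 16 of the 30 genes (53.3%, against 35.1% of all genes).

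Tns1 and Itga7 fell the most. Tns1 (ENSMUSG00000055322, chromosome 1, 73910231 to 74124449), which links integrin tails to actin in mature fibrillar adhesions, was 58.0, 65.2 and 61.6 FPKM in FAK KO and 3.72, 4.11 and 3.56 in β-catenin ΔGSK libraries, a log2 change of -3.98 (standard error 0.08, adjusted p = 5.84e-09, limma). It was 59.7, 64.5 and 60.0 in KMF, 45.0, 45.0 and 58.8 in FAK-WT and 58.8 and 64.6 in FAK-R454 libraries, all far above the β-catenin ΔGSK values. Its relative Tns3 was 56.3 to 59.9 in FAK KO and 64.8 to 71.1 in β-catenin ΔGSK libraries, and this rise of 0.22 (adjusted p = 0.0165) was the only one among the members in this fit. Git1, Vcl and Parva were also higher under median-of-ratios scaling, and Vcl and Git1 in the replicate block fit. The Tns3 rise did not pass without β-catenin ΔGSK replicate 2 or 3 (adjusted p up to 0.0634) or after chromosome centring (0.07, adjusted p = 0.319). Itga7 was 4.65, 5.39 and 4.18 FPKM in FAK KO and 0.211, 0.186 and 0.203 (19 to 24 fragments) in β-catenin ΔGSK libraries, a change of -4.01 (standard error 0.16, adjusted p = 2.22e-07). With a pseudocount of 1 this change was -2.25. In KMF Itga7 was 4.60, 5.36 and 3.86 FPKM.

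Of 5 beta chains tested, 4 were lower. Itgb8, which with αv activates latent TGF-β, was 10.3, 8.07 and 7.90 FPKM in FAK KO and 2.53, 2.85 and 2.19 in β-catenin ΔGSK libraries, a change of -1.75 (standard error 0.13, adjusted p = 1.07e-05, limma). It was 7.08, 7.25 and 10.1 in FAK-WT and 9.12 and 10.3 in FAK-R454 libraries, overlapping FAK KO. Itgb4 was 28.0, 33.5 and 30.8 in β-catenin ΔGSK libraries, a change of -1.06 (standard error 0.10, adjusted p = 3.76e-05), and the ratio of Itga6 to Itgb4 FPKM was 6.40 to 8.86 there and at most 3.85 in the other libraries. Itgb5, the vitronectin receptor chain, was 160.2, 164 and 155 in FAK KO and 87.1, 87.7 and 79.8 in β-catenin ΔGSK, a change of -0.91 (standard error 0.06, adjusted p = 5.44e-06). Itgb1 was 169.6, 133 and 151 against 122, 94.4 and 84.9, a change of -0.60 (standard error 0.14, adjusted p = 0.00522). None of these libraries overlapped. Itgb3, at 43.9 ± 4.03 FPKM, was the beta chain that did not pass (log2 change 0.10, adjusted p = 0.28).

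Of the alpha chains, besides Itga7, Itga5 was lower by a log2 change of -0.43 (standard error 0.08, adjusted p = 0.00171, limma), while Itga6 (0.11, adjusted p = 0.298), Itga3 (-0.08, adjusted p = 0.417) and Itgav (-0.24, adjusted p = 0.0601) did not pass. Itgav passed as lower in 1 fit of 5 lines, with limma-voom, after chromosome centring and in the replicate block fit (adjusted p down to 0.00887), and without FAK KO replicate 2 or β-catenin ΔGSK replicate 1. Lims2 was 1.87, 2.14 and 2.22 FPKM in FAK KO and 0.188, 0.537 and 0.382 in β-catenin ΔGSK libraries (-2.28, standard error 0.28, adjusted p = 1.64e-04, and -1.17 with a pseudocount of 1), and its paralogue Lims1 fell by 0.56 (adjusted p = 0.00594). The PDZ-LIM proteins Pdlim5 and Pdlim7 fell by 0.51 and 0.46, and Git2 fell by 0.43. After chromosome centring the change of Git2 was -0.20 and still passed. Talins and kindlin-2 did not pass (log2 changes of -0.09 to 0.04). Calls held in each leave-out fit for 12 of the 15 genes. Besides Tns3, Actn4 (fell by 0.23) lost its call without FAK KO replicate 3 (adjusted p = 0.0543) or under median-of-ratios scaling and Lpp (fell by 0.30) without FAK KO replicate 1 or 3 or β-catenin ΔGSK replicate 2 (up to 0.0984), under that scaling or after chromosome centring (adjusted p = 0.053).

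KMF spheres exceeded their knockout clone at 10 of the 30 genes and were lower at 5 (50.0% passing), against 23.1% and 28.7% of all genes. By a log2 of at least 1, 2 were higher and 2 lower (background 3.97% and 4.04%). After Itga10 (log2 change 3.02, standard error 0.11, adjusted p = 4.57e-07, limma) and Tln2, the largest rise was in Actn1, α-actinin-1, which bundles actin at adhesions. Its FPKM was 58.1, 60.0 and 52.8 in KMF and 29.8, 32.6 and 31.6 in FAK KO libraries, and 25.3 to 36.4 in those of the other lines. KMF stood apart from all of them. The difference from FAK KO was 0.86 (standard error 0.07, adjusted p = 2.53e-05), and FAK-WT lay below KMF by a log2 change of -0.73 (adjusted p = 2.37e-04).

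The other genes higher in KMF were Parva (0.52), Vasp (0.46), Itgb5 (0.43), Pdlim5 (0.41), Fermt2 (0.31), Vcl (0.26) and Pdlim7 (0.25). Itgb8 was lower, at 3.01, 2.91 and 4.04 FPKM in KMF against 7.90 to 10.3 in FAK KO, a log2 change of -1.38 (standard error 0.15, adjusted p = 1.15e-04, limma). Lims2 was 0.714, 0.976 and 0.671 FPKM in KMF, 1.19, 1.19 and 1.21 in FAK-WT and 1.54 and 1.38 in FAK-R454 libraries, all below FAK KO. In KMF it was lower by a log2 change of -1.31, Lims1 by -0.44, Itgav by -0.33 and Itgb3 by -0.20. All but Vcl, Pdlim7 and Itgb3 passed whichever library was left out. Vcl lost its call without KMF replicate 3 or FAK KO replicate 1 or 3 (adjusted p up to 0.102), Pdlim7 without KMF replicate 1 or 2 or FAK KO replicate 1 or 3 (up to 0.143), and Itgb3 without KMF replicate 1 or 2 or FAK KO replicate 3 (up to 0.077). After chromosome centring Pdlim5 changed by 0.14 (adjusted p = 0.14) and Itgb3 by -0.15 (adjusted p = 0.0636). Lims2, on chromosome 18, still passed but was below a log2 of 1 in size, at -0.90 after centring (adjusted p = 0.00468) and -0.79 with a pseudocount of 1.

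FAK-WT spheres were also set against the parental line. They differed from KMF at 20 of 30 genes (66.7%), 8 higher and 12 lower, against 18.2% and 23.5% of all genes. Itga5 (1.16, adjusted p = 3.34e-05) and Itgb8 (1.27, adjusted p = 0.0013, limma) were higher by a log2 of at least 1 (background 3.82%), and Itga10 was lower by that much (background 2.11%). Itgb3 was higher by 0.66 and Itga3 by 0.40. The lower genes were Itgb1, Itgb5 and Itga6 and the adaptors Actn1, Fermt2, Pdlim5, Vcl, Tns1, Zyx, Vasp and Parva. In 9 of the 20 the call held in each leave-out fit: Itga10, Itga5, Itgb8, Itgb3, Itga3, Itgb1, Actn1, Fermt2 and Parva. The other 11 lost it without 1 to 5 of the 6 libraries, with an adjusted p of at most 0.157. The counts higher and lower were 4 and 7 without KMF replicate 1, 4 and 8 without FAK-WT replicate 1, and 5 and 6 without FAK-WT replicate 2. After chromosome centring Git1, Itga6, Itgb4, Itgb5, Lims2, Pdlim5 and Tns1 did not pass (adjusted p of 0.0889 to 0.839). Tln2 did not pass between FAK-WT and KMF (log2 difference -0.19, standard error 0.18, adjusted p = 0.427).

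Tln1, Flna and Itga3 passed in none of the 4 comparisons with FAK KO, which share those 3 libraries. Under alternatives Itga3 did pass as lower in KMF: in 1 fit of 5 lines, with limma-voom (adjusted p down to 0.0193) and without FAK KO replicate 1. In β-catenin ΔGSK spheres Itga3 passed as lower after chromosome centring (-0.23, adjusted p = 0.0272, limma). Filamin A (Flna), a crosslinker of actin that also binds beta tails, had line means of 131 to 149 FPKM, and Actn4, the most abundant member, 204 to 282.

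The wider focal adhesion machinery was described with 53 further genes, all in the table, of which 42 or 43 could be tested. In FAK-WT over FAK KO 14 were higher and 6 lower (47.6% passing, against 40.8% of all genes). In FAK-R454 over FAK KO the counts were 10 and 1 (26.2% against 19.7%), in β-catenin ΔGSK over FAK KO 11 and 15 (60.5% against 58.1%), and in KMF over FAK KO 16 and 8 (57.1% against 51.8%). Their largest changes were all rises in β-catenin ΔGSK spheres. Pdlim1, a PDZ-LIM relative of Pdlim5, was 0.750, 0.839 and 0.491 FPKM in FAK KO and 8.02, 9.56 and 9.78 in β-catenin ΔGSK libraries (log2 change 3.56, standard error 0.18, adjusted p = 9.18e-07, limma). Evl, a Vasp relative, was 0.0164 to 0.107 (1 to 7 fragments) and 1.12 to 1.37 FPKM (3.05, adjusted p = 3.39e-05). Palld, palladin, which binds α-actinin, was 11.1 to 13.2 and 39.4 to 48.0 FPKM (1.85, adjusted p = 1.16e-06).

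The promoters of Itga10, Itga5 and Tns1 are shown because they belong to the members that rose most in the lines with re-expressed FAK or fell most in the β-catenin ΔGSK line and that have an entry in RefSeq (GRCm38.p6). Each is the 250 bases before the start site, 5′ to 3′ on the gene's strand, with capitals for matches to 4 short motifs searched on both strands: CTTTGA (TCF/LEF, the partners of β-catenin), GGAATG (TEAD), GGGCGG (SP factors) and TGANTCA (AP-1). Itga10 is chr3:96645334-96645583 on the plus strand, Itga5 is chr15:103366792-103367041 on the minus strand and Tns1 is chr1:74124549-74124798 on the minus strand.
Itga10: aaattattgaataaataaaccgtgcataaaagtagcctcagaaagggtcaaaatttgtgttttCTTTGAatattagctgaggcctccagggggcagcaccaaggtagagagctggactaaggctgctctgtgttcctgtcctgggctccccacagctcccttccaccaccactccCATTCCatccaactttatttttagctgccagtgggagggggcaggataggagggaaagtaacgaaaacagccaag
Itga5: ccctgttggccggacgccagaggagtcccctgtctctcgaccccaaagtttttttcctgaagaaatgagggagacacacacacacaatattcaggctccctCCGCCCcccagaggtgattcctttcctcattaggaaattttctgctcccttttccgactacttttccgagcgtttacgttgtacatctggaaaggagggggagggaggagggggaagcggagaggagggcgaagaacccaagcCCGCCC
Tns1: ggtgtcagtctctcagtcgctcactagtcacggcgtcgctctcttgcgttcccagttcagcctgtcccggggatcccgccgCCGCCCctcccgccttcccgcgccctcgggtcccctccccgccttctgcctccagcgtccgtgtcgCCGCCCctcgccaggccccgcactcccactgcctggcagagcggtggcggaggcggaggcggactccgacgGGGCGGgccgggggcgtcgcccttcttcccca
The capitals in Itga10 are CTTTGA, beginning 187 bases before the start, and the reverse complement of GGAATG at 75 bases. Those in Itga5 and Tns1 are all GGGCGG or its reverse complement, and no match overlaps another in these 3 windows. Of the 42 members, 34 had a promoter in the table. CTTTGA was in 5 of them (14.7%) and in 3797 of all 27025 promoters of this length. GGAATG was in 14.7% of member promoters and 12.6% of all, TGANTCA in 5.88% and 6.87%, and GGGCGG in 58.8% and 32.9%. A match describes these letters and is not a binding site, and the absence of one says only that the letters are not in this window.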

How the data were processed

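Poly(A) libraries of 14 tumorsphere samples in 5 lines were sequenced as 150-base pairs. The deposited table gives FPKM per gene, which the authors made from reads mapped, per their methods, with TopHat2; the submitters' processing notes list CASAVA 1.8, STAR 2.5, DESeq2 and mm10 without roles, so the aligner is uncertain. Its coordinates match GRCm38. FPKM divided by the value of 1 fragment was whole (within 0.01) for 100% of entries, which gave each library's depth of 25390558 to 35289859 fragments. Floors for a count of 0 cover counting error only.

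The FPKM were compared as log2(FPKM + 0.1) with limma 3.58.1 in R 4.3.3 (lmFit, eBayes with trend), on 2 lines at a time, over genes above a mean of 1 FPKM in either line, with Benjamini-Hochberg adjustment over all of them and a threshold of 0.05; the limma code was tested on simulated data. The 42 members, their roles and the list of 53 other focal adhesion genes were chosen with earlier results of these data known. Tns2 and the marker Adgre1 were matched by gene ID because the table uses older symbols. The summed level of the leukocyte markers is not reported here. Values were given for the tested member with the highest mean in each role and for the largest change of each comparison. They were also given for members passing at a log2 of 1 and for the 3 largest changes among the other genes. Some are ranges or cover only some of the lines. Alternatives were a pseudocount of 1, no filter, a filter of 5 FPKM, median-of-ratios scaling, 1 fit of the 5 lines, the sample number as a block, limma-voom on recovered fragments, chromosome centring, a log2 threshold of 1 and leaving out each library. Exon overlaps came from GENCODE M21 and promoters from RefSeq GRCm38.p6. FAK-R454 had 2 samples here; the methods of the study describe 3 replicate samples, and the other was not analysed here.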

Additional observations from a re-analysis of the deposited data

Results flagged for a closer look

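Itga5 passed in opposite directions against FAK KO for FAK-WT and for β-catenin ΔGSK spheres, with log2 changes of 1.00 and -0.43. In 1 limma fit of the 5 lines the direct difference, β-catenin ΔGSK minus FAK-WT, was -1.43 (standard error 0.07, adjusted p = 9.20e-10). Against FAK-R454, where Itga5 had changed by 0.87, the difference was -1.31 (standard error 0.08, adjusted p = 9.82e-09). Every β-catenin ΔGSK library (22.4 to 26.0 FPKM) was below every library of FAK-WT (60.9 to 69.0) and FAK-R454 (57.2 and 60.1).

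Itgb4 also passed in opposite directions, 0.49 for FAK-WT and -1.06 for β-catenin ΔGSK spheres, and the direct difference was -1.55 (standard error 0.10, adjusted p = 2.46e-08, the same limma fit). Its libraries were 88.6 to 91.3 FPKM in FAK-WT and 28.0 to 33.5 in β-catenin ΔGSK. Actn4 passed in opposite directions as well, 0.19 for FAK-WT and 0.24 for FAK-R454 against -0.23 for β-catenin ΔGSK spheres, with direct differences of -0.42 (standard error 0.06, adjusted p = 4.52e-05) and -0.47 (standard error 0.07, adjusted p = 5.8e-05) in the same limma fit. None of its calls against FAK KO held in every leave-out fit. Its FAK-WT (0.04, adjusted p = 0.65) and FAK-R454 (0.15, adjusted p = 0.0991) changes did not pass after chromosome centring, and its β-catenin ΔGSK change did not pass under median-of-ratios scaling (adjusted p = 0.169). These contrasts share the FAK KO samples, and no explanation was tested. The genes were picked for passing in opposite directions against FAK KO, so the direct differences are not independent support. The plan also asked for a direct log2 difference of at least 1. That was not applied, and Actn4 falls short of it.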

How the results depend on the processing

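No single-gene change that passed as reported reversed its sign under an alternative, while some small changes that did not pass as reported did. These included Parva and Itga3 in β-catenin ΔGSK over FAK KO and Tns1 in KMF over FAK KO. Each of them passed under an alternative and had the other sign under another. A pseudocount of 1 and a filter of 5 FPKM changed no call of a gene they tested. Of 180 member changes, no filter took away 17 calls, chromosome centring took away 17 and added 9, and limma-voom added 7 and took away none. Outside those 180, no filter also called some members that were otherwise not tested. The count of members varying over the 5 lines stayed between 25 and 33 (28 as reported). The 33 came with no filter, where 42 members were tested, and included the 28. At a log2 of at least 1 the counts higher and lower were 2 and 0 in FAK-WT over FAK KO, 1 and 0 in FAK-R454 over FAK KO, 0 and 5 in β-catenin ΔGSK over FAK KO, 2 and 2 in KMF over FAK KO, 0 and 0 in FAK-WT over FAK-R454, and 2 and 1 in FAK-WT over KMF. In FAK-WT over FAK KO the 4 lower genes became 2 with no filter, 1 with a filter of 5 FPKM, which leaves fewer genes, and 2 with median-of-ratios scaling. In FAK-R454 over FAK KO the 7 higher genes became 4 with no filter, of which 3 were among the 7, and 4 with chromosome centring. In β-catenin ΔGSK over FAK KO the 1 higher gene became 4 with median-of-ratios scaling, 2 in 1 fit of 5 lines, 2 with limma-voom and 0 with chromosome centring. Where not stated, the cause was not tested.

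Leaving out 1 library gave 5 to 7 higher and 1 to 4 lower genes in FAK-WT over FAK KO, 2 to 10 and 0 to 2 in FAK-R454 over FAK KO, 0 to 3 and 12 to 15 in β-catenin ΔGSK over FAK KO, 0 to 6 and 0 to 8 in FAK-WT over FAK-R454, 8 to 12 and 4 to 7 in KMF over FAK KO, and 4 to 7 and 6 to 13 in FAK-WT over KMF. Same-numbered samples deviated together with correlations of -0.23 to 0.41, not above 0.1 in every pair, so the numbers were not taken to pair samples. In β-catenin ΔGSK against FAK KO they were 0.08 to 0.41 (mean 0.24), and in the other comparisons -0.23 to 0.12. Samples with different numbers were not set beside them. With the sample number as a replicate block, 4 members were higher in FAK-R454 over FAK KO, and FAK-WT over FAK-R454 had 6 higher and 8 lower. In β-catenin ΔGSK over FAK KO 3 were higher and 16 lower, against 1 and 14 without the block. With FAK-R454 the block rests on 2 shared numbers, so replicate 3 of the other line does not enter the contrast. Depth limits mainly the 12 members below 1 FPKM, where a library with no fragment allows up to 3 fragments.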
